A study of Mus musculus with 6 samples.

Results

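The testis-specific serine kinases are a small family of protein kinases whose genes are transcribed almost entirely in male germ cells after meiosis. The members described here are Tssk1, Tssk2, Tssk3, Tssk4 and Tssk6, taken as every non-control array probe that the scanner files annotate with 1 of these gene names. That rule found 5 probes, 1 spot and 1 probe per gene, among 55681 different non-control probes, and 5 of 34844 gene names in the files. Whole testes came from 3 Gipr knockout (Gipr-/-) males and 3 wild-type (Gipr+/+) males, all C57BL/6 and 8 weeks of age. Gipr encodes the receptor for the gut hormone GIP, and the labels do not describe how the allele was made. RNA was hybridised in 1 colour (Cy3) with 1 array per mouse, and no treatment is named for either genotype.

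In the knockout testes the 5 kinase genes read between 85.2% and 95.2% of their wild-type level, and 0 of 5 differences passed the test against the spread between mice. Knockout replicate 3 had the lowest value of all 6 arrays for each of the 5 genes, while knockout replicate 2 lay within the wild-type range or above it for each of them. Knockout replicate 3 was below all 3 wild-type arrays for 35.2% of all tested genes too, and for 45.9% of those at least as bright as Tssk4. Over all tested genes, knockout replicate 2 had r of 0.9968 and 0.9971 with wild-type replicates 2 and 3, and 0.9961 with knockout replicate 3. A sixth family gene, Tssk5, which is outside the member list, read higher in the knockout and did not pass either.

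In spermatids, the haploid cells that reshape into sperm, these kinases phosphorylate proteins of the sperm tail and act while chromatin condenses. TSSK1 and TSSK2 bind and phosphorylate the substrate protein TSKS, and male mice without both kinases are infertile. TSSK4 phosphorylates the outer dense fibre protein ODF2, and mice without TSSK6 make sperm with poorly condensed DNA. TSSK6 becomes active with the chaperone HSP90 and the co-chaperone TSACC.

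The probes that read each gene are shown first, because a single oligonucleotide stands for each kinase. Positions and letters come from the deposited files, which place the probes on mm9. The Tssk1 and Tssk4 probes are given whole, with 60 bases, and the Tssk2, Tssk3 and Tssk6 probes by their last 30 bases, with AATAAA, the usual polyadenylation signal, in capitals where present.
Tssk1: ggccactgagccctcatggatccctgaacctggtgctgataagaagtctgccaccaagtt
Tssk2: tactgaccaccaAATAAAccacaaagtgta
Tssk3: catggctagcaagcacttgataaaagcaat
Tssk4: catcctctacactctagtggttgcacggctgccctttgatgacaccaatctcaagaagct
Tssk6: ggaacctgcAATAAAttcgctcttccttgc

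The Tssk1 probe (NM_009435) lies at chr16:17895321-17895380 on the plus strand. The printed end of the Tssk2 probe (NM_009436) lies at chr16:17900080-17900109, also on the plus strand. The corresponding end of the Tssk3 probe (NM_080442) lies at chr4:129166305-129166334 on the minus strand. The Tssk4 probe (NM_027673) lies at chr14:56270566-56270625 on the plus strand, and the Tssk6 probe end (NM_032004) at chr8:72427386-72427415 on the plus strand. Within their transcripts the full probes start at position 1025 for Tssk1, 1320 for Tssk2, 921 for Tssk3, 847 for Tssk4 and 1242 for Tssk6, per the files. Exons and coding regions of mm9 were not used here. No member lies on chromosome 7, which carries Gipr.

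The probes for these related kinases shared little sequence. Over the 10 pairs of probes the longest run of identical bases was 5 to 7 of the 60. Whether a probe also matches the transcript of another family member outside the probed stretch was not tested.

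Gipr itself separated the arrays by their labels. Its probe gave processed signals of 155, 145 and 176 in knockout mice, against 782, 820 and 1043 in wild-type mice. That probe may lie outside the deleted part, so it checks the labels and not the deletion. Array depth was alike: 70.6% to 76.0% of non-control spots were well above background with 0 saturated. The 6 arrays shared 1 slide, knockout samples occupying its row 1 and wild-type samples its row 2, and a row effect and a genotype effect cannot be told apart. Each genotype had 3 arrays, and what limits the precision was not tested.

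All 5 member probes were well above background on all 6 arrays, and none of their spots was marked as an outlier. Their processed signals ran between 5109 for Tssk4 in knockout replicate 3 and 84419 for Tssk6 in wild-type replicate 3. Signals of different probes depend on the probe, so the kinases are not ranked against each other by level. The values that follow are log2 signals after subtraction of each array's 75th percentile, and each compares 1 probe between arrays.

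Tssk1 and Tssk2, the linked pair of genes for the TSKS-binding kinases, had the differences nearest to 0 among the members. Tssk1 read 4.58, 4.69 and 4.46 in the knockout testes, against 4.64, 4.72 and 4.60 in the wild-type testes, each in the order of replicates 1 to 3. Knockout replicates 1 and 3 lay below every wild-type testis and knockout replicate 2 lay among them, so the genotypes overlapped. The means were 4.58 ± 0.11 in knockout and 4.65 ± 0.06 in wild type (SD, n = 3 each), a difference of -0.07 ± 0.08 (log2, SE; limma adjusted p = 0.800). On the linear scale the knockout level was 95.2% of the wild-type level, with a 95% interval of 83.6% to 108.4%.

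Tssk2 read 4.72, 4.94 and 4.71 in the knockout testes, against 4.96, 4.94 and 4.85 in the wild-type testes. Knockout replicates 1 and 3 were again below all wild-type values, and replicate 2 was level with wild-type replicate 2. The difference was -0.12 ± 0.08 (log2, SE; limma adjusted p = 0.710). The knockout level was 91.9% of wild type, with an interval of 79.9% to 105.6%.

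For Tssk3, a spermatid kinase encoded on chromosome 4, the wild-type testes were almost identical and the knockout testes were spread out. It read 6.50, 6.78 and 6.41 in the knockout, against 6.75, 6.77 and 6.76 in the wild type. Knockout replicate 2 was the highest of the 6 arrays, and the other two were the lowest. The difference was -0.19 ± 0.10 (log2, SE; limma adjusted p = 0.678), a knockout level of 87.4% with an interval of 73.6% to 103.7%.

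Tssk4, the ODF2 kinase gene, was the member for which knockout replicates 1 and 2 read alike. It read 2.95, 2.94 and 2.73 in the knockout testes, against 3.04, 3.09 and 2.93 in the wild-type testes. Wild-type replicate 3 lay just under knockout replicates 1 and 2, so the groups overlapped by a narrow margin. The difference was -0.14 ± 0.09 (log2, SE; limma adjusted p = 0.693), a knockout level of 90.5% with an interval of 78.5% to 104%.

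Tssk6, the kinase needed for sperm chromatin condensation, had the widest spread among knockout mice of the 5 members. It read 6.43, 6.81 and 6.30 in the knockout testes, against 6.71, 6.75 and 6.77 in the wild-type testes. The knockout set therefore held both the highest array and the 2 lowest. The difference was -0.23 ± 0.13 (log2, SE; limma adjusted p = 0.689), a knockout level of 85.2% with an interval of 68.3% to 106.4%.

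**Figure D1:**
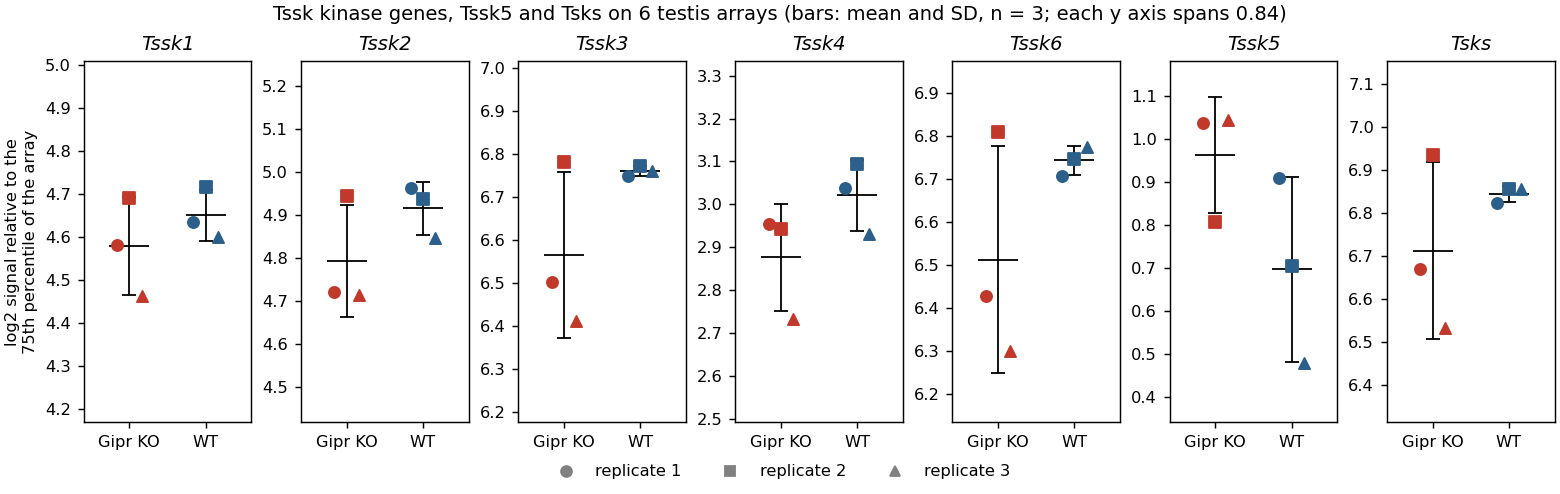
Log2 signal relative to the 75th percentile of the array (y axis) for the 5 Tssk members, Tssk5 and Tsks in Gipr knockout (left, red) and wild-type (right, blue) testes; symbols mark replicates, bars the mean and SD of 3 arrays. In each member panel knockout replicate 3 is the lowest point, and for Tssk3 and Tssk6 knockout replicate 2 is the highest.

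Calls were rare among all genes as well as among the kinases. Adjusted over all genes with limma, 0 of 5 members passed, where 0.0706% of 26924 tested genes did (0.0631% lower in the knockout). At an unadjusted limma p under 0.05 the count was also 0 of 5, where 7.42% of all genes reached it, 3.67% lower and 3.75% higher in the knockout. All 5 differences were below 0, as were 49.2% of all differences. The median of the 5 was -0.14, against 0.00 over all tested genes and -0.02 over the 4517 genes at least as bright as Tssk4. The members varied together over the arrays, so these are not 5 independent differences. In 0 of 5 were all knockout arrays below all wild-type arrays, which held for 5.94% of all genes, while 7.1% had all knockout arrays above. With 3 mice against 3, the smallest p of an exact permutation test is 0.1.

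**Figure D2:**
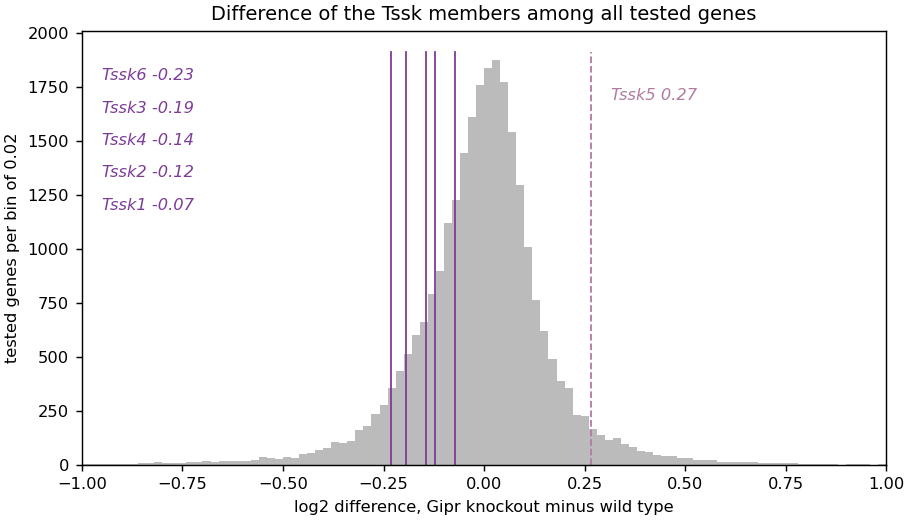
Number of tested genes (y axis, bins of 0.02) by log2 difference, Gipr knockout minus wild type (x axis, shown from -1 to 1; 84 of 26924 genes lie outside). The 5 Tssk members, drawn as solid lines, stand between -0.23 and -0.07 on the lower shoulder of the distribution, and Tssk5, dashed, at 0.27.

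Each of the 5 intervals includes 100%, and the lower bounds lie between 68.3% for Tssk6 and 83.6% for Tssk1. The intervals give the knockout levels compatible with these arrays, and the wild-type level is among them for each member.

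The spread between mice was larger in the knockout for 5 of 5 members. The SD over knockout arrays was 0.11 for Tssk1, 0.13 for Tssk2, 0.19 for Tssk3, 0.12 for Tssk4 and 0.26 for Tssk6. Over wild-type arrays it was 0.06, 0.06, 0.01, 0.08 and 0.03 in the same order. A larger knockout SD was also found for 58% of all tested genes and for 64.1% of the 4517 genes at least as bright as Tssk4. Repeat spots of the same probe within an array, over 48 to 56 probes in the members' range of signal, had a median SD of 0.04 on the log2 scale. The wild-type SDs of Tssk3 and Tssk6 were below that spot noise, and the knockout SDs of all 5 members were above it.

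The differences depended on single mice. Without knockout replicate 2, the differences were -0.13 for Tssk1, -0.20 for Tssk2, -0.30 for Tssk3, -0.18 for Tssk4 and -0.38 for Tssk6, with limma adjusted p from 0.202 to 0.474. In that fit 3 of 5 members, Tssk2, Tssk3 and Tssk6, had an unadjusted limma p under 0.05, as did 14.7% of the 27163 genes tested. Without knockout replicate 3 they were -0.01, -0.08, -0.12, -0.07 and -0.12, with adjusted p from 0.878 to 0.981. Knockout replicate 3 was below all 3 wild-type arrays for 5 of 5 members, and also for 35.2% of all tested genes and 45.9% of those at least as bright as Tssk4.

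The 5 kinases varied together over the 6 arrays. Centred on each gene's own mean, their average was -0.10, 0.09 and -0.22 over the knockout testes, against 0.08, 0.11 and 0.04 over the wild-type testes. Pearson's r between 2 members ranged from 0.69 (Tssk4 with Tssk6) to 0.99 (Tssk3 with Tssk6), with a median of 0.86 over the 10 pairs, as a description over 6 arrays that share their scaling.

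Markers of several cell types varied along with the kinases, spermatid markers among them. Bulk testis RNA cannot tell fewer spermatids from less RNA per spermatid. Of the round spermatid markers all 12 were measured, 11 lower and 1 higher in the knockout, with a median of -0.12 and 0 calls (limma, all genes). Lowest in p were the acrosomal gene Acrv1 with -0.21 ± 0.09 (log2, SE; limma adjusted p = 0.662), Spaca7 with -0.17 ± 0.09 and Spag6 with -0.12 ± 0.08. Their summed signal relative to the 75th percentile ranged over 264 to 307 for knockout mice and 292 to 329 for wild-type mice. Of the elongating spermatid markers all 13 were measured, 10 lower and 3 higher, with a median of -0.09 and 0 calls. Odf1, described under Other observations, had the lowest p of this list, with -0.30 ± 0.11 (limma adjusted p = 0.662). Oaz3, an antizyme gene of spermatids, differed by -0.26 ± 0.11 (0.662), and Akap4, a fibrous sheath gene of the sperm tail, by -0.19 ± 0.11 (0.690). That summed signal was 3105 to 3606 in the knockout testes and 3389 to 3481 in the wild-type testes. No marker of either list was missing from the tested genes. Whether these markers account for the kinase values was not tested.

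The median elongating spermatid marker stood at -0.08, 0.09 and -0.13 for knockout mice and at 0.05, 0.06 and 0.00 for wild-type mice, centred per gene. Its r with the members ranged from 0.75 for Tssk4 to 0.96 for Tssk2. For round spermatid markers r ranged from 0.69 for Tssk6 to 0.95 for Tssk4. Tssk4 had the higher r with the round spermatid list, and the other members with the elongating list, as descriptions over 6 arrays. The Leydig cell list had an r of 0.72 to 0.95 with the members, with a median of 0.84, against a median of 0.81 for the round and 0.95 for the elongating spermatid list. The meiotic list had an r of -0.84 to -0.53 and the Sertoli list of -0.72 to -0.43.

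Measured relative to the median of 25 spermatid markers instead of the 75th percentile, the differences were 0.01 for Tssk1, -0.04 for Tssk2, -0.11 for Tssk3, -0.06 for Tssk4 and -0.15 for Tssk6. The sign of Tssk1 turned under that scaling, which moved the median of all genes to 0.08. The limma adjusted p of the 5 members was then 0.864 to 0.982.

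**Figure D3:**
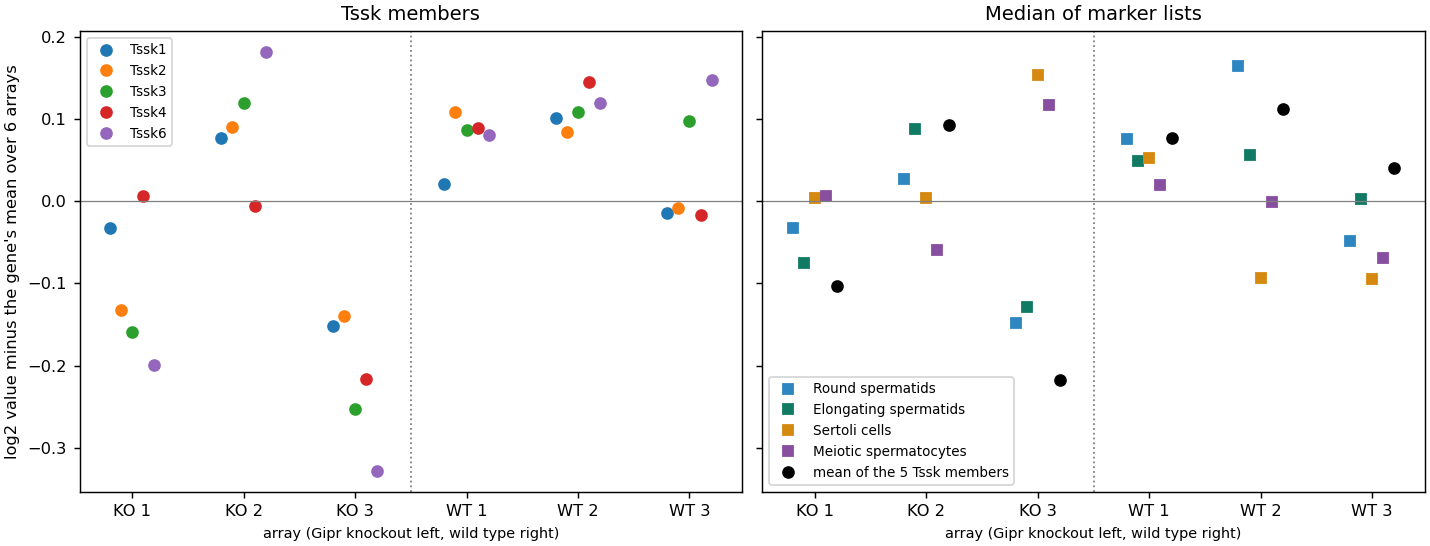
Log2 value minus the gene's mean over 6 arrays (y axis) on each array (x axis, Gipr knockout left of wild type), for the 5 Tssk members (left panel) and for the median of 4 marker lists with the mean of the members in black (right panel). The members and both spermatid lists are low in knockout replicate 3, where Sertoli and meiotic markers are high.

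The other marker lists give the make-up of the same samples, with 0 calls in each of them (limma, all genes). Knockout medians were below 0 for Leydig cells (7 measured, -0.44), macrophages and leukocytes (6, -0.26) and spermatogonia (9, -0.02). In that order 6, 6 and 6 markers were lower in the knockout and 1, 0 and 3 higher. The medians were above 0 for Sertoli cells (10, 0.09), meiotic spermatocytes (10, 0.02), peritubular myoid cells (6, 0.13) and endothelium (5, 0.02). In that order 3, 2, 0 and 2 markers were lower in the knockout and 7, 8, 6 and 3 higher. Knockout replicate 3 stood apart for the median Leydig marker, at -0.79 against -0.01 and 0.08 in the other knockout testes and 0.12 to 0.41 in the wild type. Hsd3b1, named after its values were seen, went the other way. It had its highest value of the 6 arrays in knockout replicate 3, at 4.56, and a difference of 0.16 ± 0.24 (log2, SE). The summed Leydig signal was 37.5 to 42.1 in the knockout and 43.0 to 46.2 in wild-type mice, and the Leydig gene Insl3 was not among the tested genes. Most of that sum came from the brightest probes, Hsd3b1 and Cyp17a1. Their log2 means were 4.22 and 3.74 in the knockout and 4.06 and 4.18 in the wild type. The summed Sertoli signal was 328 to 343 in the knockout and 312 to 317 in wild-type mice. Without Rhox8 the other 9 Sertoli markers summed to 202 to 214 in the knockout and 202 to 216 in wild-type mice. At an unadjusted limma p under 0.05, reached by 3.75% of all genes as higher and 3.67% as lower, the higher genes of these lists were Rhox8, Fshr and Amh (Sertoli), Myh11 (myoid) and Mlh3 (meiotic). The lower genes were Hsd17b3 (Leydig) with -0.74 ± 0.26 (log2, SE) and Plvap (endothelium) with -0.23 ± 0.08. These were named after their values were seen. Of tissues a dissection can bring along, blood had 2 of 3 markers measured (median 0.25), adipose tissue 3 of 5 (-0.22) and epididymis 1 of 6 (0.26). The part of these cell types in the kinase values was not tested.

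Tssk5, a family gene on chromosome 15, had a difference above 0. It read 1.04, 0.81 and 1.04 in the knockout testes, against 0.91, 0.70 and 0.48 in the wild-type testes. Knockout replicates 1 and 3 were the highest arrays, and knockout replicate 2 lay inside the wild-type range. The difference was 0.27 ± 0.13 (log2, SE; limma adjusted p = 0.663), a knockout level of 120% with an interval of 97.2% to 149%. Its r with the 5 members was -0.77 to -0.37.

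Relative levels of the 5 kinases within a testis were compared for all 10 pairs as log2 ratios of 2 signals on the same array. The genotypes overlapped for 10 of 10 ratios, and the knockout minus wild-type difference of a ratio was -0.05 to 0.16. The widest was Tssk1 over Tssk6, at -1.93 ± 0.16 for knockout mice and -2.09 ± 0.07 for wild-type mice (SD, n = 3 each; exact permutation p = 0.3, adjusted p = 0.667 over 10 ratios). The lowest exact p was 0.2. With 3 mice against 3 this p cannot fall below 0.1, so no ratio could have passed at 0.05.

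Tsks is the gene of the substrate bound by TSSK1 and TSSK2. It read 6.67, 6.94 and 6.53 in the knockout testes, against 6.82, 6.86 and 6.86 in the wild-type testes. As for Tssk3 and Tssk6, knockout replicate 2 was the highest array and replicate 3 the lowest. The difference was -0.13 ± 0.11 (log2, SE; limma adjusted p = 0.734), and r over the 6 arrays was 0.90 with Tssk1, 0.87 with Tssk2, 0.97 with Tssk3, 0.71 with Tssk4, 0.99 with Tssk6 and 0.96 with the elongating spermatid list. Tsks lies on chromosome 7, as Gipr does, at chr7:52213345-52213404 (mm9), far from the Gipr probe at chr7:19742486-19742545.

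Partners, substrates and chaperones of the kinases were close to their wild-type levels at the median. Of 14 listed genes 14 were measured, 8 lower and 6 higher in the knockout, with a median of -0.03 and 0 calls. Tsacc, the TSSK6 co-chaperone gene, read 6.67, 6.83 and 6.61 in the knockout testes, against 6.78, 6.80 and 6.83 in the wild-type testes, a difference of -0.10 ± 0.07 (log2, SE; limma adjusted p = 0.718). Knockout replicates 1 and 3 were below the wild type there, as for each kinase but Tssk4. Pdpk1, whose product can phosphorylate TSSK3, differed by -0.12 ± 0.10 (limma adjusted p = 0.728). The TSSK4 substrate gene Odf2 and the chaperone gene Hsp90aa1, named for their roles after their values were seen, differed by 0.01 ± 0.06 and 0.02 ± 0.07 (log2, SE).

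**Figure D4:**
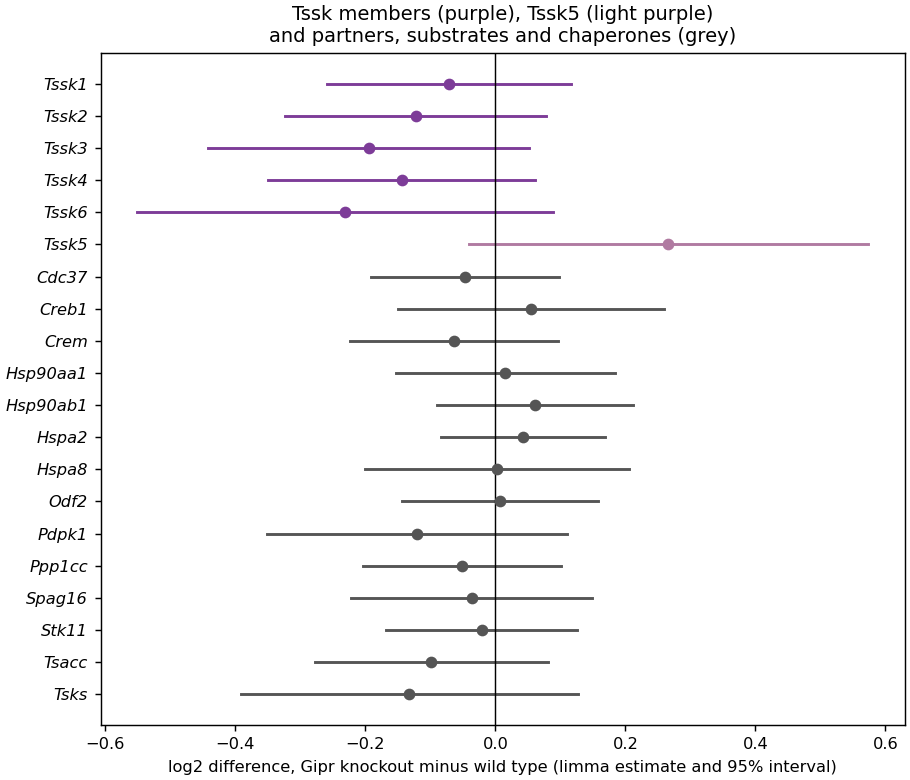
Log2 difference, Gipr knockout minus wild type (x axis), with its 95% limma interval for the 5 Tssk members, Tssk5 and the 14 listed partners, substrates and chaperones (rows). All 20 intervals include 0, the 5 member estimates lie left of 0 and Tssk5 lies right of it.

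Kinases related by sequence or by tissue had 0 calls (limma, all genes). The family belongs to the calcium/calmodulin-dependent kinase group. Of 23 kinases listed as members or relatives of that group 22 were measured, 9 lower and 13 higher, with a median of 0.01. Nuak1, a relative of AMP-activated kinase, had the lowest p among them, with 0.29 ± 0.14 (log2, SE; limma adjusted p = 0.664), followed by Hunk with 0.13 ± 0.07 (0.693) and Camkk2 with 0.10 ± 0.07 (0.715). Among other kinases of male germ cells 22 entries were measured, 9 lower and 13 higher, with a median of 0.03. Pim1, described under Other observations, had the lowest p among them, with -0.66 ± 0.20 (limma adjusted p = 0.661). Cdk16, a cyclin-dependent kinase, differed by -0.28 ± 0.12 (0.662) and Nek2, a centrosomal kinase, by 0.17 ± 0.07 (0.662). For Nek2 all knockout arrays lay above all wild-type arrays, as for 7.1% of all tested genes.

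Genes of spermatid chromatin condensation, the step for which TSSK6 is needed, had a median of -0.02 over 16 measured genes, 10 lower and 6 higher, with 0 calls. Rnf8, a ubiquitin ligase of histone removal, had the lowest p with 0.16 ± 0.08 (log2, SE; limma adjusted p = 0.680). The spermatid histone genes H2al2a and Hils1 followed with -0.13 ± 0.09 (0.716) and -0.11 ± 0.08 (0.717).

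Genes beside the kinases on the chromosome were compared too. The 2 nearest protein-coding genes on each side of each member, by the RefSeq gene table of GRCm38.p6, gave 16 measured genes that are not members. Of these 10 were lower and 6 higher in the knockout, with 0 calls, where 49.2% of all tested genes were lower. An unadjusted limma p under 0.05 was reached by 7.42% of all tested genes and by 1 of these 16. That one was Car15, a carbonic anhydrase gene near Tssk1, with -0.20 ± 0.07 (log2, SE; adjusted p = 0.662) and knockout arrays all below wild type. Dgcr2, between Car15 and Tssk1, also had all knockout arrays below wild type, as did 5.94% of all genes, with -0.09 ± 0.05 (log2, SE; adjusted p = 0.700). Ess2, which flanks Tssk2, differed by 0.00 ± 0.08, while Fam229a beside Tssk3 differed by -0.17 ± 0.09 (adjusted p = 0.681) and had r = 0.93 with it over the 6 arrays. Of the other neighbours of Tssk3, Zbtb8b had r = 0.43, Bsdc1 r = -0.80 and Marcksl1 r = -0.71 with it.

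The genes most like the mean of the 5 kinases over the 6 arrays, among genes with a symbol and an SD at or above the median, were Plscr1, Stard10, Rffl, Spem2 and Iqcn, with r of 0.993 to 0.997. Plscr1 encodes a phospholipid scramblase and Stard10 a lipid transfer protein. They were picked as the highest, and 6.46% of the 13462 genes with that SD had an r over 0.9. Spem2 read 3.26, 3.48 and 3.17 in the knockout testes, against 3.46, 3.48 and 3.44 in the wild-type testes, as an example of the shape they were picked for.

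Promoters of the members are shown as context, and their part in the shared variation over the arrays was not tested. Tssk1 and Tssk2 lie in the same orientation with 2983 bases between them in RefSeq. The sequences are from RefSeq on GRCm38.p6 (all 5 members matched by symbol), as the 80 bases just before the annotated start, and capitals mark matches on either strand to TGACTTCA or TGACG. The shorter of these is the core of the cAMP response element TGACGTCA, which contains it. The longer one, TGACTTCA, was chosen after the sequences were seen. The windows of Tssk3 and Tssk4 held no match to either and are not printed.
Tssk1: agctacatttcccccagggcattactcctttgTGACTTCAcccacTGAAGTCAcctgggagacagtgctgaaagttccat
Tssk2: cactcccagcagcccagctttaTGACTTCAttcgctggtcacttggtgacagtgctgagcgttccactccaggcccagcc
Tssk6: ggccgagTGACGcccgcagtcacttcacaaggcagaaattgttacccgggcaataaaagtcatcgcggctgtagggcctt

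These windows are chr16:17894123-17894202, chr16:17898557-17898636 and chr8:69902104-69902183 for Tssk1, Tssk2 and Tssk6, all on the plus strand. Over the full promoter sequence of 300 bases (250 before and 50 after the start), TGACTTCA or its reverse complement occurred in 2 members, Tssk1 and Tssk2. It occurred in 1.52% of 32851 promoters of the same length. TGACG or its reverse complement occurred in 1 member, Tssk6, and in 20.8% of all promoters. The full TGACGTCA occurred in 0 members and in 1.79% of promoters, and TATAAA in 0 members and 13.6%. CCAAT or its reverse complement occurred in Tssk3 and Tssk4 and in 37.4% of promoters. A match describes letters in the window and not a site.

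Between promoters of members, the longest identical run was 11 bases for Tssk1 with Tssk2, against 7 to 10 bases for the other pairs. Identity over the global alignment was 49.4% for that pair and 44.0% to 47.7% for the others.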

How the data were processed

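Intensity values come from 6 scanner files that the authors deposited, read with Agilent Feature Extraction 10.7.3.1 per the submitters' processing notes. Labelling with Cy3 started with 100 ng of RNA, per the labels' protocols. Per the file headers the processed signal is a linear intensity, detrended over the slide with no local background subtracted. The authors' deposited value table equals that signal times 1 factor per array, from 0.967 to 1.08, and has a median value of 200 on each array. That table served as an alternative. The series' design text gives 3 mice per genotype, so the tests set each difference against the spread between mice. Limma moderates that spread over all genes.

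Log2 signals were averaged over a probe's spots without outlier spots and lowered by each array's 75th percentile. A gene was represented by its brightest probe among those above background on every array of a genotype (38871 probes, 26924 genes). Limma 3.58.1 (R 4.3.3; lmFit, eBayes) compared knockout with wild type without covariates, two-sided, with Benjamini-Hochberg adjustment over all genes and a threshold of 0.05. The fit was checked on simulated data. Probe names were updated through RefSeq.

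Named genes were the members, Gipr, other Tssk genes, the 3 lowest p of each list, neighbours and the 5 most alike genes; other names are marked. Members and lists were chosen with earlier results of these data known.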

Additional observations from a re-analysis of the deposited data

How the results depend on the processing

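In 19 alternatives each, 0 of 5 members passed in every one. Tssk2, Tssk3, Tssk4 and Tssk6 stayed below 0 in all 19, and Tssk1 in 18, with 0.010 relative to spermatid markers. Leaving out 1 array gave -0.13 to -0.01 for Tssk1, -0.20 to -0.08 for Tssk2, -0.30 to -0.12 for Tssk3, -0.19 to -0.07 for Tssk4 and -0.38 to -0.12 for Tssk6. Limma adjusted p ranged from 0.202 to 0.982 over members and alternatives. An unadjusted p under 0.05 was reached by Tssk2, Tssk3 and Tssk6 with array weights (20.0% of all genes) and without knockout replicate 2 (14.7%), by Tssk3 with trend and robust (8.35%) and by Tssk6 with normexp (8.57%). Over all genes, 19 passed; the count was 29 with normexp, 7 without a filter on dim probes, 34 with trend and robust, 30 with array weights and 5 with the replicate block. Without chromosome 7 it was 0 (limma, 1773 at an unadjusted p under 0.05), and leaving out 1 array gave 5 to 24. The cause was not tested. Calls split into 17 lower and 2 higher, and 14 and 5 relative to spermatid markers. Same-numbered samples had deviations correlating at -0.05 to 0.05, and differently numbered ones at -0.05 to 0.08. With 3 pairs this showed no pairing by number and cannot exclude one. The replicate block left 0 members called. A slide block could not be fitted, with 1 slide. All member spots were well above background; what limits their precision was not tested.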

Other observations

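Pim1, a serine/threonine kinase that responds to cytokine signals, had the largest difference of the germ cell kinases listed beside the family. It read -0.11, 0.19 and -0.07 in the knockout testes, against 0.86, 0.22 and 0.91 in the wild-type testes. All knockout values lay below all wild-type values, as for 5.94% of all tested genes, but wild-type replicate 2 was close to knockout replicate 2. The difference was -0.66 ± 0.20 (log2, SE; limma adjusted p = 0.661) and did not pass.

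Odf1, an outer dense fibre gene of the sperm tail, had its lowest value in knockout replicate 3, like the kinases. It read 5.23, 5.46 and 5.05 in the knockout testes, against 5.51, 5.57 and 5.57 in the wild-type testes. All knockout arrays lay below all wild-type arrays, as for 5.94% of all tested genes. The difference was -0.30 ± 0.11 (log2, SE; limma adjusted p = 0.662). Prm1, a protamine gene named after its values were seen, differed by -0.03 ± 0.07 (adjusted p = 0.910).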
